A study of Rattus norvegicus with 6 samples.

Results

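Translation initiation and elongation factors were examined in rat liver as 60 genes, all rows of the deposited table whose symbol begins with Eif1 to Eif6 or with Eef1 or Eef2, out of 25926 rows. The Y-linked copy Eif2s3y was left out by that rule. RNA was sequenced from livers of Sprague-Dawley rats labelled as 4 weeks old. The 3 TPN rats received total parenteral nutrition, in which all nutrients are infused into a vein, for 7 days and carried the disease label PNALD (parenteral nutrition-associated liver disease). The 3 control rats received 0.9% saline and were labelled normal, and how either group was otherwise fed is not given in the sources used here. Values are FPKM, fragments divided by transcript length and by the library's mapped total, so that levels of different genes can be set side by side, and values of a group are given for rats 1, 2 and 3 in that order. Of the 60 genes, 58 averaged at least 1 FPKM across the 6 livers and were tested. The remaining Eef1a2, the muscle and brain form of elongation factor 1A, and Eif5a2 lay at or under 0.167 FPKM in every liver. Eif3e is listed under the older symbol Eif3el1. Eif3h, Eif3i, Eif5 and Eif4ebp3 had no row under those symbols and were not analysed here.

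Initiation starts when eIF2 carries the initiator tRNA to the small ribosomal subunit, where eIF1, eIF1A and eIF3 hold the scanning complex open, while eIF4F binds the cap of the mRNA and unwinds its leader. eIF2B recharges eIF2 after each round, the eIF2 kinases block that step under stress, and the 4E-BPs hold back the cap-binding subunit eIF4E unless mTORC1, the nutrient-sensing kinase, phosphorylates them. Elongation then runs on eEF1A, which delivers aminoacyl-tRNA and is recharged by the eEF1B complex, and on eEF2, which moves the ribosome and is switched off by its kinase eEF2K. In liver this machinery answers to amino acid supply and insulin, and mRNAs of many of its parts carry a 5′ terminal oligopyrimidine (TOP) run, through which mTORC1 controls their translation rather than their amount.

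TOP runs at the annotated start sites are shown for all 8 members that bear one by the rule below, since abundance of such mRNAs does not report their translation. Among 57 promoter windows of 54 members (RefSeq, GRCr8, 250 bases before to 50 after the start), 8 held a C followed by at least 6 bases that were C or T, read on the transcript's strand and beginning at most 5 bases from the start, which is 14.04% against 5.38% of all 33469 windows. The windows below are 30 bases long with the run in capitals.
Eef1a1, chr8:88225049-88225078, minus strand: tggacgttCTTTTTCgcaacgggtttgccg
Eef1b2, chr9:72074085-72074114, plus strand: ggtcccggCCCTTTTTCTCCCTCagcgctg
Eif3f, chr1:172369058-172369087, plus strand: cgttctagCCTCTCTCTTTCTCggcaagat
Eif3m, chr3:111897167-111897196, minus strand: tggtaccgCTCCTTTTCCggtcggcgtggt
Eif2s3, chrX:62933674-62933703, minus strand: agcattttCCTTTTCTCTCTgagcaagatg
Eif2a, chr2:144911352-144911381, plus strand: atgggtttCTCTTTCCgggacaagatggcg
Eif1, chr10:85747125-85747154, plus strand: aggcgccgCCCCTCCgccccagtcactgag
Eef1akmt1, chr15:35826898-35826927, minus strand: ctcattggCCCCCTCCTTCCggtcggcttc
The 8 members with a run had a median log2 fold change of 0.17 and the 44 tested members with a window and no run 0.20. This split rests on annotated starts. Members without a run by the rule, Eef2 and Eef1g among them, are not thereby shown to lack a TOP run. The motif TGATGNAA, a core shared by sites of the amino acid response factor ATF4, was searched on both strands of the whole window and stood in 2 member windows (3.51%) and in 3.98% of all windows. One of these was Eif2s2, with the match in capitals.
Eif2s2, chr3:163855588-163855617, minus strand: ttccctttcgcTGATGCAAgagcctagcgc
The other was Eif3g. The share with TGATGNAA among the member windows was therefore close to that of all promoters. Eif4ebp1, Eef1d, Eif4b, Eif3el1, Eif4e3 and Eef1akmt3 had no window, so neither motif was searched in them.

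No translation factor gene passed the test between TPN and control liver. Limma called 0 of the 58 tested members at a Benjamini-Hochberg adjusted p under 0.05, against 28 of all 11362 features tested (0.246%), and the smallest adjusted p of a member was 0.278. At an unadjusted p under 0.05 there were 9 members, 8 with higher and 1 with lower values in TPN livers, which is 15.5% of the members against 11.4% of all features (4.44% higher and 7.01% lower). Most log2 fold changes were small and positive. They were above 0 for 46 of the 58 (79.3%) against 50.9% of all features, with a median of 0.19 against 0.0065, and over all 60 members the median was also 0.19. TPN and control values did not overlap for 15 members that were higher in TPN livers (25.9% against 8.02% of all features) and for 3 that were lower (5.17% against 9.09%). The 3 lower ones were Eif4ebp2, Eef2k and Eif4g3. In whole liver, fewer cells of a type and less RNA per cell cannot be told apart.

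**Figure D1:**
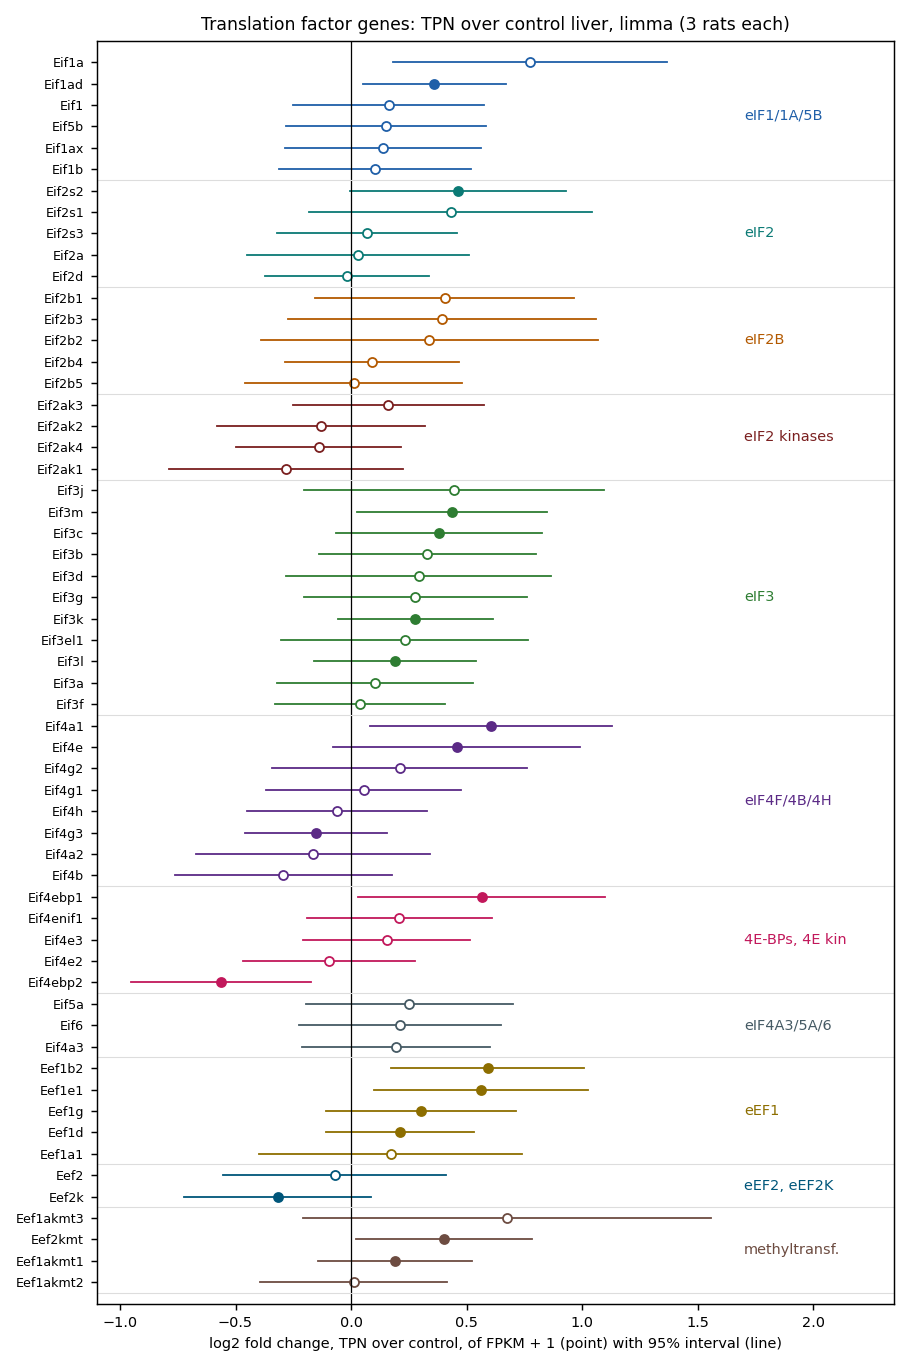
Log2 fold change of FPKM + 1, TPN over control, for the 58 tested members grouped by complex (horizontal axis), with the 95% interval from limma as a line; filled points mark members whose values did not overlap between the groups of 3 rats. Most points lie right of 0, Eif1a lies farthest right at 0.77 and Eif4ebp2 farthest left at -0.56.

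The higher values came most often from TPN 3. This liver was the highest of the 6 libraries for 34 of the 58 members (58.6%) and for 37.3% of all features, and its median log2 difference from the control mean was 0.35 over the members and 0.13 over all features. TPN 2 stood at 0.16 over the members and -0.046 over all features. TPN 1 stood at -0.015 over the members and -0.090 over all features, and it was the lowest library for 21 members (36.2%, against 31.5% of all features). Without TPN 3 the median over the members was 0.066, where all features had a median of -0.063, and 4 members had an unadjusted p under 0.05. Without TPN 1 there were 17 such members. Without control 1, control 2 or control 3 there were 0, 5 and 2. The share over all features moved too, at 5.45% without control 1 against 11.4% with all 6 livers. These counts therefore do not describe the members alone. The 3 control livers lay between -0.017 and 0.021 over the members.

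**Figure D2:**
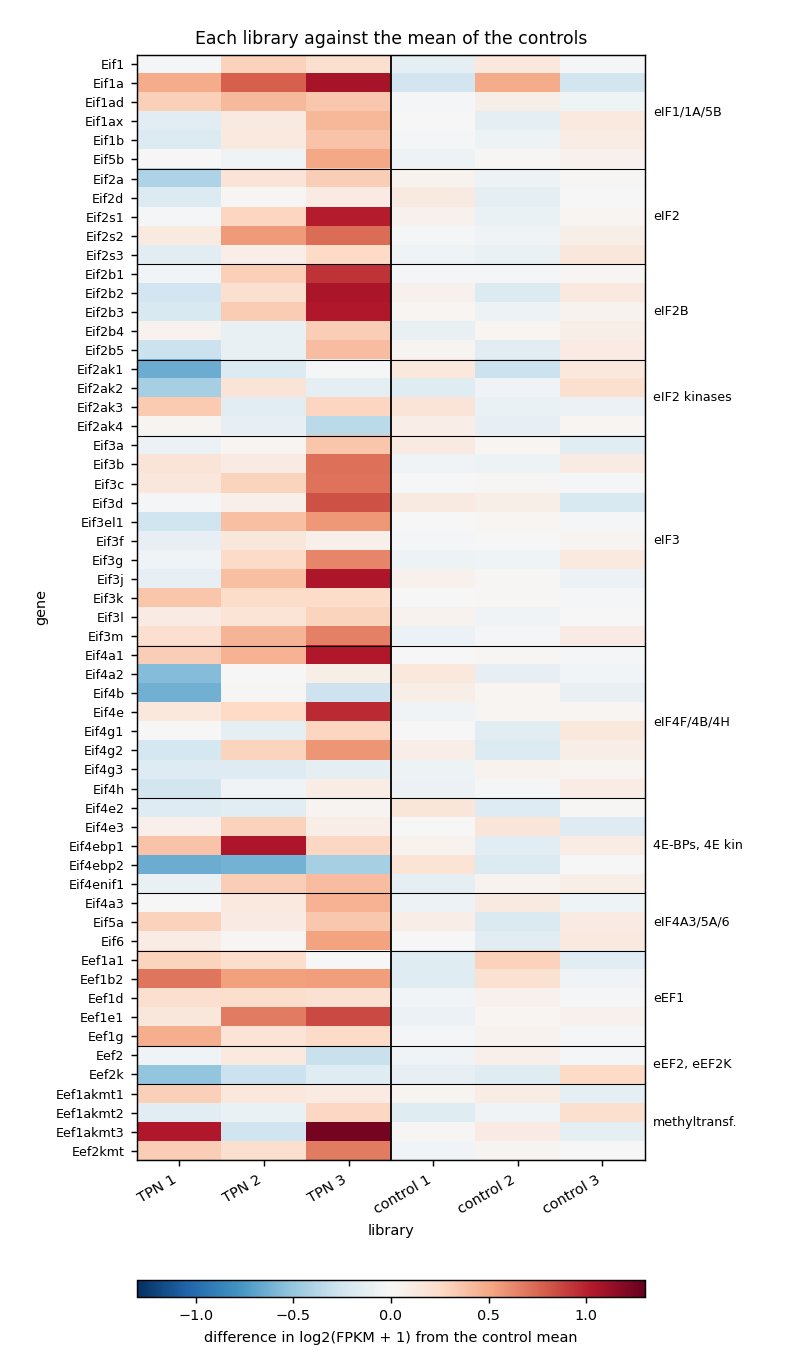
Difference in log2(FPKM + 1) of each library from the mean of the 3 controls, for the 58 tested members in rows by complex, with TPN 1, 2 and 3 left of control 1, 2 and 3. In the TPN 3 column red (higher) is deepest for Eef1akmt3, followed by Eif1a, Eif2b2, Eif3j and Eif4a1, while Eif4ebp2 is blue (lower) in all 3 TPN columns.

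The group for start codon selection and subunit joining held eIF1, eIF1A and eIF5B genes, and Eif1ad by its name. All 6 measured genes had positive log2 fold changes (median 0.16, and 0.065 to 0.26 with 1 library left out) and none passed the test. Eif1a, a form of eIF1A, which stabilises the scanning complex, measured 37.5, 46.2 and 57.05 FPKM in TPN livers, against 22.3, 37.6 and 22.5 FPKM in control livers (log2 fold change 0.77 with SE 0.26, adjusted p = 0.329 by limma). The groups overlapped, since control 2 lay just above TPN 1. Eif1ad, an eIF1A domain protein, measured 7.503, 8.15 and 7.72 FPKM in TPN livers, against 5.78, 6.21 and 5.57 FPKM in control livers without overlap (log2 fold change 0.36 with SE 0.13, adjusted p = 0.378 by limma). Eif1, which guards against starts at the wrong codon, was the most abundant of them at 85.4 ± 9.65 FPKM in TPN and 76.1 ± 6.95 in control livers (SD, n = 3), and its values overlapped (log2 fold change 0.16). The X-linked Eif1ax and Eif1a are near-identical, so reads may be split between them and both values are uncertain.

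Of eIF2, the carrier of initiator tRNA, the beta subunit had the clearest difference in level. Eif2s2, which encodes it, measured 51.7, 70.8 and 79.4 FPKM in TPN livers, against 46.9, 46.3 and 50.3 FPKM in control livers (log2 fold change 0.46 with SE 0.20, adjusted p = 0.438 by limma). All 3 TPN livers were higher than every control, by 1.41-fold in the mean. Eif2s1, the alpha subunit that stress kinases phosphorylate, measured 22.9, 28.3 and 48.04 FPKM in TPN livers, against 24.1, 21.7 and 23.6 FPKM in control livers (log2 fold change 0.43 with SE 0.26, adjusted p = 0.591 by limma). TPN 2 and TPN 3 exceeded every control, while TPN 1 lay among the controls, and without TPN 3 the log2 fold change was 0.13. The median log2 fold change of the group was 0.069 with all livers and -0.028 without TPN 3. Eif2s3, the gamma subunit, showed 16.8 ± 2.43 FPKM in TPN and 15.9 ± 1.53 in control livers, and Eif2a and Eif2d, alternative tRNA carriers, had log2 fold changes of 0.029 and -0.019.

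eIF2B, the exchange factor made of 5 subunits, was positive for all 5 genes (median log2 fold change 0.34), with overlap between the groups for each of them. Summed FPKM of the 5 were 33.3, 38.5 and 60.2 FPKM in TPN livers, against 36.02, 34.7 and 38.8 FPKM in control livers. The sum was far above the other livers in TPN 3 alone, while TPN 1 lay below all controls. Eif2b1, of the regulatory alpha subunit, showed 6.35, 8.39 and 13.5 FPKM in TPN livers, against 6.47, 6.49 and 6.71 FPKM in control livers (log2 fold change 0.40 with SE 0.24, adjusted p = 0.577 by limma). Eif2b5, the catalytic epsilon subunit, showed 10.99 ± 3.06 FPKM in TPN and 10.7 ± 0.989 in control livers (log2 fold change 0.010, 95% interval -0.46 to 0.48). Without TPN 3 the median of eIF2B was -0.022, and the log2 fold changes of Eif2b1, Eif2b4 and Eif2b5 were 0.14, -0.022 and -0.19. The ratio of summed eIF2B to summed eIF2 FPKM, which does not depend on library scaling, was 0.375, 0.332 and 0.411 in TPN livers, against 0.418, 0.419 and 0.424 in control livers. The TPN values all lay under the controls (difference in means -0.048, exact permutation p = 0.10, 2-sided, the smallest that 3 against 3 rats can give), and with 1 library left out the difference ran from -0.0668 to -0.0275, smallest in size without TPN 2.

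Of the 4 eIF2 kinases, 3 had negative log2 fold changes (median -0.13), and the groups overlapped for all 4. Eif2ak1, the heme-regulated kinase HRI, was the most abundant with 15.4, 21.7 and 24.4 FPKM in TPN livers, against 27.3, 20.1 and 27.3 FPKM in control livers (log2 fold change -0.28 with SE 0.22, adjusted p = 0.677 by limma). TPN 1 was the lowest, and without it the log2 fold change was -0.10. The other kinases measured 9.12 ± 2.07 FPKM in TPN and 9.98 ± 1.45 in control livers for Eif2ak2 (PKR, which senses double-stranded RNA), 5.04 ± 1.05 FPKM in TPN and 4.37 ± 0.558 in control livers for Eif2ak3 (PERK, which senses unfolded protein in the endoplasmic reticulum) and 2.34 ± 0.439 FPKM in TPN and 2.66 ± 0.247 in control livers for Eif2ak4 (GCN2, which senses uncharged tRNA) (SD, n = 3). Their intervals on the log2 scale ran from -0.58 to 0.32, from -0.25 to 0.57 and from -0.50 to 0.22. The amount of kinase mRNA does not measure kinase activity. Eif2ak2 had a log2 fold change of 0.019 without TPN 1. The median of the kinases was -0.039 without TPN 1 and -0.22 without TPN 2.

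eIF3, the scaffold that binds the small subunit and the mRNA, had nearly equal summed levels in the 3 control livers. All 11 measured subunit genes had positive log2 fold changes (median 0.28), and none passed. Of these, 4 were higher in TPN livers without overlap (36.4% against 8.02% of all features). An unadjusted p under 0.05 was seen for 1 of the 11 (9.09% against 11.4% of all features). Summed over the 11 genes, FPKM were 364, 422 and 533 FPKM in TPN livers, against 358, 355 and 355 FPKM in control livers. The 3 controls lay within a few FPKM of each other (SD 1.68), whereas the TPN livers spread widely (SD 85.7) and all lay above them. Mean levels of the subunits spanned 28.9 to 54.6 FPKM in TPN livers and 23.01 to 41.3 FPKM in control livers, a 1.89-fold and a 1.79-fold span, so the genes of the complex were within a narrow range per length in both groups. For comparison, the 5 eIF2B genes spanned 2.78-fold in TPN livers and 3.93-fold in control livers.

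Single eIF3 genes had log2 fold changes of different size. Eif3m, a subunit of the octamer core, measured 37.1, 43.9 and 51.1 FPKM in TPN livers, against 30.3, 31.4 and 34.5 FPKM in control livers (log2 fold change 0.44 with SE 0.18, adjusted p = 0.414 by limma). Eif3c, a core subunit that contacts eIF1, measured 45.5, 50.4 and 67.99 FPKM in TPN livers, against 41.2, 41.7 and 40.6 FPKM in control livers (log2 fold change 0.38 with SE 0.19, adjusted p = 0.509 by limma). Both were higher in every TPN liver, most in TPN 3, without which Eif3c had a log2 fold change of 0.21. Eif3j, a loosely bound subunit, had the largest log2 fold change of the complex, with 29.3, 41.7 and 66.4 FPKM in TPN livers, against 32.9, 31.97 and 29.96 FPKM in control livers (log2 fold change 0.44 with SE 0.28, adjusted p = 0.601 by limma). Here TPN 1 lay below the controls, and without TPN 3 the log2 fold change was 0.14. Eif3k and Eif3l, which are dispensable in some eukaryotes, were higher without overlap at 28.9 ± 1.47 FPKM in TPN and 23.7 ± 0.313 in control livers and at 37.6 ± 2.44 FPKM in TPN and 32.8 ± 1.09 in control livers. Eif3f and Eif3a lay at 0.038 and 0.10 on the log2 scale. Without TPN 3 the median of the complex was 0.14, and without TPN 1 it was 0.44.

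**Figure D3:**
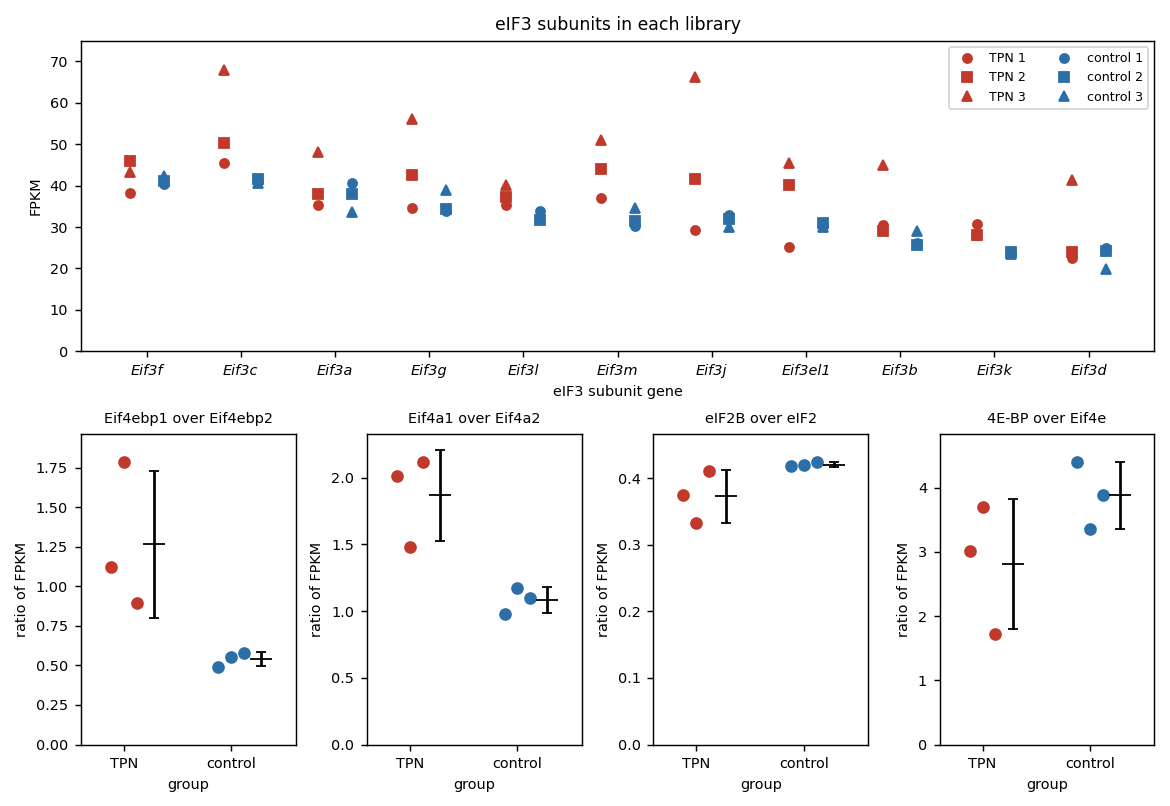
Upper panel, FPKM of the 11 eIF3 subunit genes in each library (TPN in red, left, and control in blue, right, with a marker shape per rat); lower panels, ratios of FPKM within a library for TPN and control rats, with the mean and SD in black. The TPN 3 triangles stand highest for most subunits, and the TPN values of Eif4ebp1 over Eif4ebp2 and of Eif4a1 over Eif4a2 all lie above the controls.

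In the cap-binding group directions were mixed, with 4 of 8 log2 fold changes positive and a median of -0.0031. Eif4a1, the helicase subunit of eIF4F, measured 118, 129 and 195 FPKM in TPN livers, against 94.3, 95.3 and 93.4 FPKM in control livers (log2 fold change 0.60 with SE 0.23, adjusted p = 0.378 by limma). The controls lay within a narrow range (SD 0.936) and every TPN liver was above them, with a mean 1.56-fold higher. Without TPN 3 the log2 fold change was 0.39. Its paralog Eif4a2 measured 58.9, 87.3 and 92.1 FPKM in TPN livers, against 96.5, 81.4 and 85.2 FPKM in control livers (log2 fold change -0.16 with SE 0.22, adjusted p = 0.832 by limma). Eif4a2 overlapped, with TPN 1 lowest. The ratio of Eif4a1 to Eif4a2 was 2.01, 1.48 and 2.12 in TPN livers, against 0.977, 1.17 and 1.097 in control livers, a mean of 1.87 ± 0.341 in TPN and 1.08 ± 0.0976 in control livers (exact permutation p = 0.10, 2-sided). This ratio was chosen after the values were seen, so its p is no independent test, and the paralogs may share reads.

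Eif4e, the cap-binding subunit, measured 16.4, 17.9 and 29.8 FPKM in TPN livers, against 14.2, 15.1 and 14.98 FPKM in control livers (log2 fold change 0.46 with SE 0.23, adjusted p = 0.503 by limma). The groups did not overlap, but TPN 1 and TPN 2 were only slightly above the controls, and without TPN 3 the log2 fold change was 0.20. The scaffold Eif4g1 measured 55.2 ± 8.06 FPKM in TPN and 52.9 ± 5.01 in control livers (SD, n = 3; log2 fold change 0.055, 95% interval -0.37 to 0.48), and without TPN 3 its log2 fold change was -0.057. Eif4g3, a second scaffold, was lower in every TPN liver by a small margin, at 7.19, 7.17 and 7.398 FPKM in TPN livers, against 7.75, 8.46 and 8.301 FPKM in control livers (log2 fold change -0.15 with SE 0.13, adjusted p = 0.724 by limma). Eif4b, a helicase cofactor and mTORC1 pathway target, measured 29.999, 47.5 and 38.6 FPKM in TPN livers, against 49.4, 47.7 and 43.6 FPKM in control livers. TPN 1 was the lowest and TPN 2 lay among the controls. Eif4g2, a scaffold relative that cannot bind eIF4E, measured 73.9, 106 and 129 FPKM in TPN livers, against 92.3, 76.6 and 91.96 FPKM in control livers, with overlap. Over the 8 genes log2 fold changes ran from -0.29 to 0.60.

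The 2 measured 4E-BPs, repressors that compete with eIF4G for eIF4E, pointed in opposite directions. Eif4ebp2 had the smallest p of all members and measured 23.4, 23.8 and 27.1 FPKM in TPN livers, against 41.95, 32.7 and 36.8 FPKM in control livers (log2 fold change -0.56 with SE 0.17, adjusted p = 0.278 by limma). It was lower in all 3 TPN livers, 1.501-fold in the mean. Eif4ebp1, a known ATF4 target, measured 26.1, 42.4 and 24.2 FPKM in TPN livers, against 20.6, 17.98 and 21.4 FPKM in control livers (log2 fold change 0.57 with SE 0.23, adjusted p = 0.415 by limma). All TPN livers were above the controls, TPN 2 by the most, and without TPN 2 the log2 fold change was 0.32. Eif4ebp1 over Eif4ebp2 gave a ratio of 1.12, 1.78 and 0.892 in TPN livers, against 0.49000, 0.5503 and 0.5805 in control livers, with means of 1.27 ± 0.464 in TPN and 0.54 ± 0.0461 in control livers (exact permutation p = 0.10, 2-sided). The difference in means was 0.72 with all livers and ran from 0.47 to 0.91 with 1 library left out, lowest without TPN 2. That ratio was also chosen after the values were seen. Since Eif4ebp1 was higher and Eif4ebp2 lower in every TPN liver, the ratio had to separate the groups. Its exact permutation p was thereby fixed at 0.10 and adds no evidence. With both 4E-BPs summed, the ratio to Eif4e was 3.02, 3.704 and 1.72 in TPN livers, against 4.398, 3.36 and 3.89 in control livers, which overlapped (exact permutation p = 0.20, 2-sided).

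Markers of the amino acid response were set beside Eif4ebp1, and their part in its level was not tested. Asns, the asparagine synthetase and an ATF4 target, measured 23.4, 36.5 and 12.4 FPKM in TPN livers, against 1.08, 4.37 and 1.205 FPKM in control livers (limma adjusted p = 0.0882), and Trib3, another, 5.21, 21.7 and 5.17 FPKM in TPN livers, against 1.92, 3.65 and 2.23 FPKM in control livers (limma adjusted p = 0.383). Both were highest in TPN 2 among the TPN livers and in control 2 among the controls. Eif4ebp1 was highest in TPN 2 and lowest in control 2, and Ddit3, a stress-induced transcription factor of the same list, measured 4.24, 8.78 and 9.41 FPKM in TPN livers, against 3.61, 4.62 and 3.92 FPKM in control livers, highest in TPN 3 and with overlap. The eIF4E relatives Eif4e2, which represses translation at the cap, Eif4e3, and the transporter Eif4enif1 had log2 fold changes of -0.096, 0.15 and 0.21, with overlap.

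**Figure D4:**
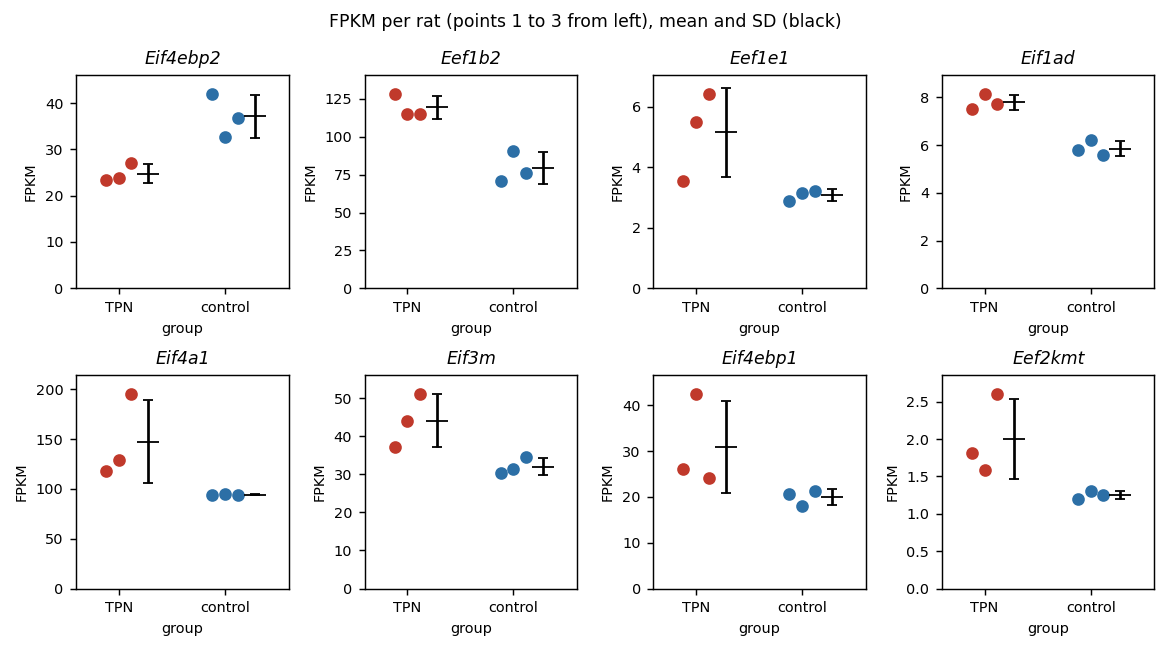
FPKM per rat for the 8 members whose groups did not overlap and whose unadjusted limma p was under 0.05, with TPN (red) left of control (blue) in each panel and the mean and SD in black; axes start at 0. Eif4ebp2 is lower in all 3 TPN livers, and the other 7 genes are higher.

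Of the eEF1 group, in which Eef1e1 was counted by its name, all 5 tested genes had positive log2 fold changes (median 0.30). Of the 5, 4 were higher without overlap (80% against 8.02% of all features), Eef1e1 among them. Eef1b2, the exchange subunit that recharges eEF1A and whose TOP run is shown above, measured 128, 115 and 115 FPKM in TPN livers, against 70.8, 90.9 and 76.1 FPKM in control livers (log2 fold change 0.59 with SE 0.18, adjusted p = 0.295 by limma). Every TPN liver was above every control, 1.51-fold in the mean. Eef1g, which anchors the exchange complex, measured 165, 135 and 142 FPKM in TPN livers, against 117, 122 and 117 FPKM in control livers (log2 fold change 0.30 with SE 0.18, adjusted p = 0.572 by limma). Eef1d, the second exchange subunit, measured 18.5 ± 0.162 FPKM in TPN and 15.8 ± 0.5602 in control livers (SD, n = 3). All 3 genes of the exchange complex were higher without overlap, by 1.17-fold to 1.51-fold in the mean. Eef1e1, which despite its name is a scaffold protein of the multisynthetase complex, measured 3.53, 5.51 and 6.42 FPKM in TPN livers, against 2.87, 3.15 and 3.23 FPKM in control livers (log2 fold change 0.56 with SE 0.20, adjusted p = 0.358 by limma).

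Eef1a1, which delivers aminoacyl-tRNA, was the most abundant member, at 1654, 1589 and 1346 FPKM in TPN livers, against 1216, 1668 and 1223 FPKM in control livers (log2 fold change 0.17 with SE 0.25, adjusted p = 0.8498 by limma). With 1 library left out its log2 fold change ran from 0.093 (without control 1) to 0.32 (without control 2). It held 33.5% to 42.8% of the members' summed FPKM in TPN livers and 36.2% to 44.0% in control livers. Control 2 was the highest library and TPN 3 the lowest TPN liver. The ratio of Eef1b2 to Eef1a1 was 0.0776, 0.0723 and 0.0855 in TPN livers, against 0.0582, 0.0545 and 0.0623 in control livers, without overlap (exact permutation p = 0.10, 2-sided, chosen after the values were seen). The p of this ratio is therefore no independent test. Eef1a1, Eef1b2 and Eif4a1 have processed pseudogenes that may share reads, so their levels are uncertain. All members together held 0.759% to 0.779% of the FPKM of a TPN liver and 0.616% to 0.726% of that of a control liver.

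Eef2, the translocase, measured 448, 506 and 379 FPKM in TPN livers, against 451, 484 and 458 FPKM in control livers (log2 fold change -0.072 with SE 0.21, adjusted p = 0.937 by limma, 95% interval -0.55 to 0.41). Its log2 fold change turned positive after quantile normalisation, at 0.21, and without TPN 3, at 0.037. Eef2k, the kinase that inactivates eEF2, measured 2.602, 3.25 and 3.61 FPKM in TPN livers, against 3.78, 3.63 and 5.18 FPKM in control livers (log2 fold change -0.32 with SE 0.17, adjusted p = 0.538 by limma). TPN 3 lay just under control 2, TPN 1 was the lowest, and without control 3 the log2 fold change was -0.19. Enzymes that methylate the elongation factors were low. Eef2kmt, which modifies eEF2, measured 1.81, 1.59 and 2.601 FPKM in TPN livers, against 1.196, 1.301 and 1.25 FPKM in control livers (log2 fold change 0.40 with SE 0.17, adjusted p = 0.416 by limma), higher in each TPN liver, with a log2 fold change of 0.26 without TPN 3. Eef1akmt3, which modifies eEF1A, measured 2.34, 0.357 and 2.86 FPKM in TPN livers, against 0.643, 0.751 and 0.493 FPKM in control livers, so that TPN 1 and TPN 3 were high and TPN 2 was below all controls (log2 fold change 0.68, and 1.14 without TPN 2). Eef1akmt1 was higher without overlap (1.91 ± 0.227 FPKM in TPN and 1.55 ± 0.194 in control livers), and Eef1akmt2 was not (2.05 ± 0.498 FPKM in TPN and 2.02 ± 0.397 in control livers).

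Eif5a, Eif6 and Eif4a3 had positive log2 fold changes and none passed the test. Eif5a, which helps ribosomes through stalling sequences and is the protein that carries hypusine, measured 218, 189 and 224 FPKM in TPN livers, against 187, 154 and 189 FPKM in control livers (log2 fold change 0.25 with SE 0.19, adjusted p = 0.674 by limma). TPN 1 and TPN 3 lay above every control, and TPN 2 lay just under control 3. Without control 2 the log2 fold change was 0.16. Eif6, which keeps the ribosomal subunits apart, measured 30.2 ± 6.14 FPKM in TPN and 25.7 ± 2.36 in control livers, and Eif4a3, a helicase of the exon junction complex, 25.1 ± 4.33 FPKM in TPN and 21.6 ± 1.598 in control livers (SD, n = 3). The log2 fold change of Eif6 was 0.21, and 0.055 without TPN 3.

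Other genes of the translation pathway likewise gave no call. Of 20 mTORC1 pathway genes, 0 passed limma's test, which 0.246% of all features passed, and the median log2 fold change was -0.058. At an unadjusted p under 0.05, 1 was higher and 1 lower (10% against 11.4% of all features). These were Sesn2 (6.13 ± 2.81 FPKM in TPN and 3.36 ± 0.251 in control livers) and Sesn1 (4.93 ± 0.508 FPKM in TPN and 7.45 ± 0.922 in control livers), sestrins that restrain mTORC1. Of 13 partners of initiation 0 passed, and the median was 0.11. Here too 1 was higher and 1 lower at an unadjusted p under 0.05 (15.4% against 11.4% of all features). Mknk2, a kinase that phosphorylates eIF4E, had the smallest p, with 12.6, 18.6 and 13.8 FPKM in TPN livers, against 31.6, 21.5 and 37.6 FPKM in control livers (log2 fold change -0.95 with SE 0.24, adjusted p = 0.214 by limma), lower in each TPN liver. The poly(A)-binding proteins Pabpc4 and Pabpc1, which bridge the mRNA tail to eIF4G, measured 41.99 ± 1.05 FPKM in TPN and 31.7 ± 2.92 in control livers and 149.9 ± 21.2 FPKM in TPN and 112 ± 7.67 in control livers, without overlap for either. Of 11 genes around eIF2 phosphorylation and the amino acid response 0 passed, and the median was 0.53. In this list 4 were higher at an unadjusted p under 0.05 (36.4% against 4.44% of all features). Of 5 tested termination and recycling genes and 14 elongation partners, mitochondrial factors among them, 0 passed and 0 had an unadjusted p under 0.05, with medians of 0.091 and -0.020.

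Features of the whole libraries were set beside these values, and their part in them was not tested. FPKM totals ran from 509630.0 to 530159 in TPN and from 515949 to 544670.0 in control libraries, and depth is unknown. Of 11 acute-phase genes 10 were positive, with summed levels of 36239 to 101446 FPKM in TPN and 18427 to 51699.5 FPKM in control; TPN 1 was highest and control 2 the highest control. Hepatocyte markers (3 of 5 negative, none past the test, Ttr lower without overlap) summed to 38931 to 66079 FPKM in TPN and 58631 to 78906 FPKM in control. Erythroid markers (5 of 5 lower, 4 past the test) summed to 230.0 to 577 FPKM in TPN and 2124 to 2417 FPKM in control and cell cycle genes (5 of 5 lower, 3 past the test) to 0.661 to 2.32 FPKM in TPN and 11.9 to 21.4 FPKM in control. Of all features 0.246% passed the test. Kupffer cell markers (4 of 5 positive) summed to 257 to 351 FPKM in TPN and 194 to 282 FPKM in control. Neutrophil markers (2 of 2 tested positive) summed to 13.9 to 40.9 FPKM in TPN and 5.71 to 24.9 FPKM in control, endothelial markers (1 of 3 positive) to 35.1 to 47.96 FPKM in TPN and 31.4 to 54.9 FPKM in control and stellate markers (0 of 3 positive) to 10.7 to 17.3 FPKM in TPN and 20.6 to 33.8 FPKM in control. Cholangiocyte (0 of 2) and pancreas (0 of 1) markers summed to 5.402 to 7.03 FPKM in TPN and 9.44 to 12.9 FPKM in control, and to 6.27 to 8.52 FPKM in TPN and 9.68 to 14.8 FPKM in control. The pancreas sum was nearly all Cela1, since Prss1 and Pnlip were 0 in every liver and Cpa1 was at most 0.107 FPKM. B cell, T and NK cell and skeletal muscle markers had no member with a mean of at least 1 FPKM. The labels give 3 rats per group, and intervals for members near 0 are wide (for Eif2b5 from -0.46 to 0.48 on the log2 scale), so a missed threshold does not show equal levels.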

How the data were processed

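Livers of 3 TPN and 3 control rats were grouped by title. Per the labels' protocols, RNA was extracted with TRIzol, and libraries followed Illumina's standard protocols. Bowtie 0.12.2, Cufflinks and the build Rnor_6.0 were used, per the submitters' processing notes, in a role that these notes do not give. FPKM are the only values the authors deposited, in 1 table. Ratios of values under 0.3 FPKM showed no steps of whole reads (at most 0.853% in a log2 bin of 0.01), so depth is unknown and no counting interval is given. Strandedness is not given in the sources used here.

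Rows averaging at least 1 FPKM were tested as log2(FPKM + 1) with limma 3.58.1 (R 4.3.3, statmod 1.5.0; empirical Bayes with trend and robust settings, group as the only term, 2-sided, Benjamini-Hochberg over 11362 features, threshold 0.05). Low genes change by more than this scale shows, and a fold is the ratio of mean FPKM. Data simulated for TPN against control on 11362 features gave 29 of 100 genes changed by 1 (log2) and 88 of 100 changed by 2, with 4 unchanged among 121 called. The changed genes were drawn from features with a mean log2(FPKM + 1) above 3, and noise was independent between genes. These rates therefore do not cover lower members or shifts shared by many genes of a library. Ratios between members were compared by exact permutation over rats. Members, complexes, lists and tests were chosen with earlier results of these data known. The rule for named members took those past the threshold, those without overlap at an unadjusted p under 0.05, the most abundant and the most different of each of 11 complexes, and 16 fixed genes, of which Eif4ebp3 was not analysed here. Any other member with values was named after its values were seen. RefSeq promoters (GRCr8) matched 54 of 60 members by symbol. Figures were drawn with matplotlib 3.10.9. The alternatives were a pseudocount of 0.1, other filters (none, or 5 FPKM on average), 3 scalings, plain moderation, a replicate block, summed rows, and libraries left out.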

Additional observations from a re-analysis of the deposited data

How the results depend on the processing

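In none of the 16 alternatives run did a member pass the threshold, and the smallest adjusted p of a named member in any of them was 0.0639. The count of all features called was less stable, at 28 in the main test, 18 with a pseudocount of 0.1, 6 at an average of at least 5 FPKM, 8 with plain moderation, 58 with the replicate block, 121 without control 2 and TPN 1 together, and 0 with no filter, median-ratio scaling or quantile normalisation. Leaving out 1 library gave 0 to 46. Control 2 and TPN 1 had the highest summed acute-phase levels of their groups, so leaving out this pair was not a neutral choice. Members at an unadjusted p under 0.05 numbered 9, against 16 after quantile normalisation, 5 with the replicate block and 0 to 17 with 1 library left out. Members without overlap numbered 15 to 30 higher and 3 to 5 lower with 1 library left out, where fewer rats make separation easier, and 32 higher and 5 lower without control 2 and TPN 1. In that last setting 24.1% of all features were higher and 23.2% lower without overlap. Without control 1 alone these shares were 10.9% and 9.96%, beside 15 higher and 3 lower members.

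With 1 library left out, the median log2 fold change ran from 0.066 to 0.24 over the members, from -0.028 to 0.24 for eIF2, from -0.022 to 0.63 for eIF2B, from -0.22 to -0.039 for the kinases, from 0.14 to 0.44 for eIF3, from -0.097 to 0.057 for the cap-binding group, from 0.07009 to 0.23 for the 4E-BP group, from 0.065 to 0.31 for eIF4A3, eIF5A and eIF6, from 0.21 to 0.36 for eEF1, from -0.25 to -0.13 for eEF2 and its kinase and from 0.23 to 0.36 for the methyltransferases. At an average of at least 5 FPKM it was -0.21 for the kinases, -0.096 for the 4E-BP group and -0.072 for eEF2, from which Eef2k dropped out. It was -0.054 for eEF2 and its kinase after quantile normalisation and 0.27 for the 4E-BP group without control 2 and TPN 1. Directions turned for Eef2, at 0.21 after quantile normalisation and from -0.17 to 0.037 with 1 library left out. With 1 library left out they also turned for Eef1akmt2 (-0.12 to 0.11), Eif2b5 (-0.19 to 0.15), Eif4g1 (-0.057 to 0.14), Eif2b4 (-0.022 to 0.18) and Eif2ak2 (-0.28 to 0.019). The cause was not tested. The other 461 of 472 values of named members kept their direction and side of the threshold.

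Same-numbered TPN and control rats had correlations of their deviations of -0.21, -0.14 and 0.32, and other pairs ran from -0.35 to 0.42. Deviations from means of 3 rats cannot decide whether the numbers pair the rats. The block is given only as a count. Without the depth of each library, counting error cannot be set apart from differences between rats.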
